A study of Mus musculus with 2 samples.

Results

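The genes described here build, load and maintain the photoreceptor outer segment. They are 10 named genes: *Prph2* and *Rom1* of the disc rim, *Rp1* and *Rp1l1* of the axoneme, *Prom1* and *Cdhr1* of the growing discs at the outer segment base, and *Tulp1*, *Aipl1*, *Unc119* and *Pde6d*, which move or fold proteins bound for the outer segment. They were chosen by name for these roles, with earlier results of these data known, and each has a row among the 17774 genes deposited. All 10 also passed the filter that kept 15947 genes. In brief, the untreated library held 2993 counts of these genes and the GSK-J4-treated library 86, or 26.9 and 4.12 per 10000 library counts. *Rom1*, the most abundant of them in untreated cells, had no count in any treated cell. *Tulp1* kept the most counts in treated cells, and the library rates of *Prom1* and *Rp1* differed by less than their counting error. Both were found in a smaller share of treated cells, which were shallower. At equal depth the libraries could not be told apart in the share of cells with either gene.

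Single cells sorted for green fluorescence came from the retinae of C57BL/6 mice at P24. Both groups carried the Pde6ccpfl1 mutation, which inactivates the catalytic phosphodiesterase subunit of cones and leads to cone degeneration, and a Chrnb4.eGFP transgene, in which the *Chrnb4* promoter drives the fluorescent protein used in the sort. One group was uninjected and is called untreated, and the other received a single intravitreal injection of 10 µM GSK-J4, an inhibitor of histone H3K27 demethylases, at P14 and was collected 10 days later. The untreated group had no sham injection, so the injection and the drug cannot be told apart, and no retina without the mutation was sequenced. The comparison asks how the RNA of cells sorted as cones from mutant retinae differed between the uninjected and the injected group.

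A photoreceptor outer segment is a modified cilium filled with stacked membrane discs that hold the visual pigment and the enzymes of phototransduction. New discs form at its base and old ones are shed at its tip, so that disc proteins must be made and delivered through the connecting cilium throughout life. The tetraspanins peripherin-2 and ROM1 bend the membrane at the disc rim, RP1 and RP1L1 bind the microtubules of the axoneme, and carrier proteins hide the lipid tails of transducin and phosphodiesterase on the way. Inherited defects in most of these genes cause retinal degeneration in humans.

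Each library was 1 plate of 1 cell per well, and 54 well positions were used on both plates. With 1 library per group there is no replicate check and no test between the groups. Intervals below are 95% exact Poisson intervals for summed counts and 95% Clopper-Pearson intervals for shares of cells, and they cover counting error only. Where a library had no count, a floor of 3 counts, or 3 cells for a share, is given instead, which lies below the upper end of the 95% interval. After filtering, 82 untreated cells held 1113424 counts, the median cell having 8118 (860 to 98250), and 64 GSK-J4-treated cells held 208578, the median cell having 2335.5 (420 to 15371). The label of cone photoreceptor was checked on 11 cone markers, which took 2.59% of untreated counts (6 to 2286 counts per cell) and 0.213% of treated counts, where only 14 of 64 cells had any and 5 of the 11 markers, among them *Gngt2* and *Pde6c*, were at 0. In the treated library the markers of the labelled cell type were thus largely absent, and the names of its cells hold the word adult although the labels give P24. The 12 rod markers took 0.290% and 0.0316%. *Gngt1*, with 1293 untreated counts, and *Nr2e3*, with only 10, were at 0 in the treated library. In rate, 10 of the 12 were lower there and 2 were higher. The higher ones were *Pde6a*, with 53 and 16 counts (ratio 1.61, 0.860 to 2.86), and *Slc24a1*, with 6 and 7 (6.23, 1.79 to 22.4). Markers of other retinal cells took at most 0.129% in either library. Müller glia markers were lower in the treated library, at 12.9 and 3.50 per 10000. Amacrine markers were higher, at 0.485 (0.364 to 0.633) and 1.29 (0.853 to 1.88), on 54 and 27 counts. The most treated counts among them were those of *Pax6*, with 7 and 13. *Gad1* (12 and 1) and *Slc6a9* (8 and 0) were lower in rate, and the rest of the list was higher. Bipolar, ganglion cell, microglia and pigment epithelium markers were higher with overlapping intervals. The part of these differences in the results below was not tested.

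The promoter sequences of the 2 disc rim genes and of *Aipl1* are shown because *Rom1* and *Prph2* had the lowest log-folds of the 10 genes and *Aipl1* holds a photoreceptor homeodomain core close to its start. Each is the stretch of 250 bases directly upstream of the RefSeq start, read 5′ to 3′ on the gene's strand, with positions on GRCm38.p6. Capitals in *Rom1* mark the GC box core GGGCGG or its reverse complement, capitals in *Aipl1* mark TAATCC or its reverse complement GGATTA, the core bound by Crx and Otx2, and *Prph2* held neither. The *Rom1* stretch is at chr19:8929357-8929606 on the minus strand, the *Prph2* stretch at chr17:46910228-46910477 on the plus strand and the *Aipl1* stretch at chr11:72037510-72037759 on the minus strand.
Rom1: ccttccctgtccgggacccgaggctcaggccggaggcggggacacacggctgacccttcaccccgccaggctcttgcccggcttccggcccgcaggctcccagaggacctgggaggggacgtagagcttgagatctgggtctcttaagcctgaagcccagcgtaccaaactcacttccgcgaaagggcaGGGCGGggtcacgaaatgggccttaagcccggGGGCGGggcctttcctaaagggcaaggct
Prph2: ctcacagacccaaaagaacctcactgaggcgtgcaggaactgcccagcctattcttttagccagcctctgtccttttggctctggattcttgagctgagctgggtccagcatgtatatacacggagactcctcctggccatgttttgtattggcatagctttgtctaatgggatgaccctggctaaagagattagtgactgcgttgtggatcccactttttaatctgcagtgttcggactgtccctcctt
Aipl1: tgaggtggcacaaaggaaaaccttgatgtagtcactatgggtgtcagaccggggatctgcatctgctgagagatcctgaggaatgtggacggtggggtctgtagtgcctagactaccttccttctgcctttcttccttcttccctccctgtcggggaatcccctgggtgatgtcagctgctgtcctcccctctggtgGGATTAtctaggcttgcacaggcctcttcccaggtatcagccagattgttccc

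The *Rom1* stretch has 66.8% G and C and 2 GC boxes, 61 and 29 bases before the start, whereas *Prph2* has 49.6% and *Aipl1* 54.8%. Of the 10 genes, 8 had entries in the RefSeq table, with 11 promoters in all. A GC box on either strand was found in 3 of the 11, 1 each of *Rom1*, *Prom1* and *Unc119*, against 32.7% of 32851 promoters. The homeodomain core was found in 2 of the 11, that of *Aipl1* at 53 bases before the start and 1 of *Unc119* at 118 bases before, against 6.25% of promoters. None of the 11 held TATAAA or its reverse complement, which 12.4% of promoters hold. These matches describe letters in a window and are not binding data.

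The outer segment genes together made up 26.9 of every 10000 untreated counts (25.9 to 27.9) and 4.12 of every 10000 treated counts (3.30 to 5.09). Differences per gene are given as a log-fold, the natural log of the mean over cells of counts per 10000 plus 1, in treated minus untreated cells, so that a negative value is lower after GSK-J4. All 10 log-folds were negative, against 50.5% of the 7682 genes found in 10% or more of untreated or of treated cells. Of the 10, only *Tulp1* (12.5%) and *Unc119* (10.9%) reached 10% of treated cells. The other 8 met that minimum through untreated cells alone, where they were found more often. Shares of all genes set beside the 10 are therefore description, here and below, and not support for a difference. By more than 0.3 log-fold, 8 of the 10 were lower, against 24% of those 7682 genes, and 0 were higher, against 20.4%. Their median log-fold was -0.61, from -2.50 for *Rom1* to -0.093 for *Rp1*, and the median of all 7682 genes was -0.0050. On the library rate, the intervals of 6 genes were lower in treated cells without overlap, against 24% of all genes, namely *Prph2*, *Rom1*, *Cdhr1*, *Aipl1*, *Unc119* and *Pde6d*, and those of 0 genes were higher, against 22.0%. By more than 0.5 log-fold, 5 of the 10 were lower, against 15.2%. Of the 4736 genes with 30 or more untreated counts, 32.4% had at most 2 treated counts, as did 5 of the 10, *Prph2*, *Rom1*, *Cdhr1*, *Aipl1* and *Pde6d*.

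**Figure D1:**
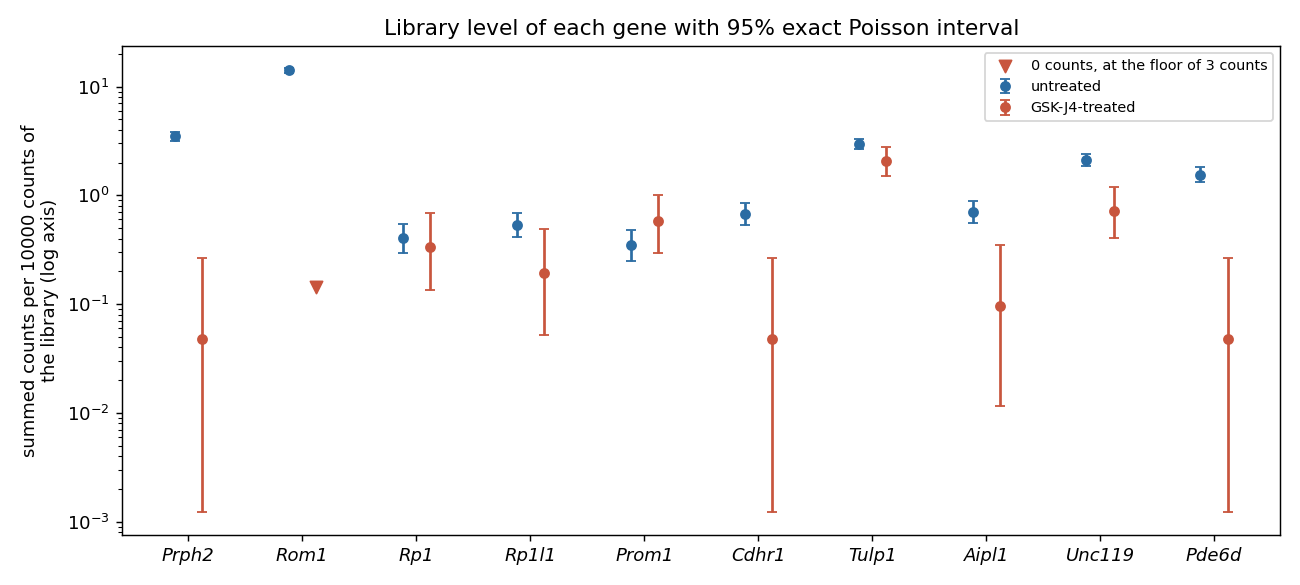
Counts per 10000 library counts (log axis) of each of the 10 genes in the untreated and the GSK-J4-treated library, with 95% Poisson intervals as bars. *Rom1* is at 14.1 in untreated cells and has no treated count, shown by a triangle at the floor of 3 counts, 0.144, while the intervals of *Rp1*, *Rp1l1*, *Prom1* and *Tulp1* overlap between the libraries.

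*Prph2* encodes peripherin-2, the tetraspanin that scaffolds the disc rim, and lies on chromosome 17 (17:46910459-46924933, plus strand). The untreated library held 388 counts (350.3 to 428.6) in 66 of 82 cells, and the treated library held 1 count (0.0253 to 5.57) in 1 of 64 cells. Untreated cells ranged from 0 to 163 per 10000 with a median of 1.69, and the only treated cell with a count stood at 1.19. The intervals of the library rates did not overlap, and the rate was 72.7-fold lower in the treated library (13.0 to 2878), with a log-fold of -1.79. The untreated cell at 163 per 10000 was shallow, with 23 *Prph2* counts among 1409, and without it the log-fold was -1.40.

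*Rom1* encodes the second rim tetraspanin, which assembles with peripherin-2, and is a short gene on chromosome 19 (19:8927391-8929356, minus strand). It held 1565 counts (1488 to 1644) in 68 of 82 untreated cells and 0 counts in the 64 treated cells, and a floor of 3 cells allows a share of up to 4.69% of treated cells. Untreated cells ranged from 0 to 85.4 per 10000 with a median of 6.24. Set against a floor of 3 counts over the treated library, the rate was at least 97.7-fold lower, a bound that does not allow for the error of the untreated count. *Rom1* alone made up 52.3% of the untreated counts of the outer segment genes (50.5 to 54.1), so the rim genes carried most of the summed difference.

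**Figure D2:**
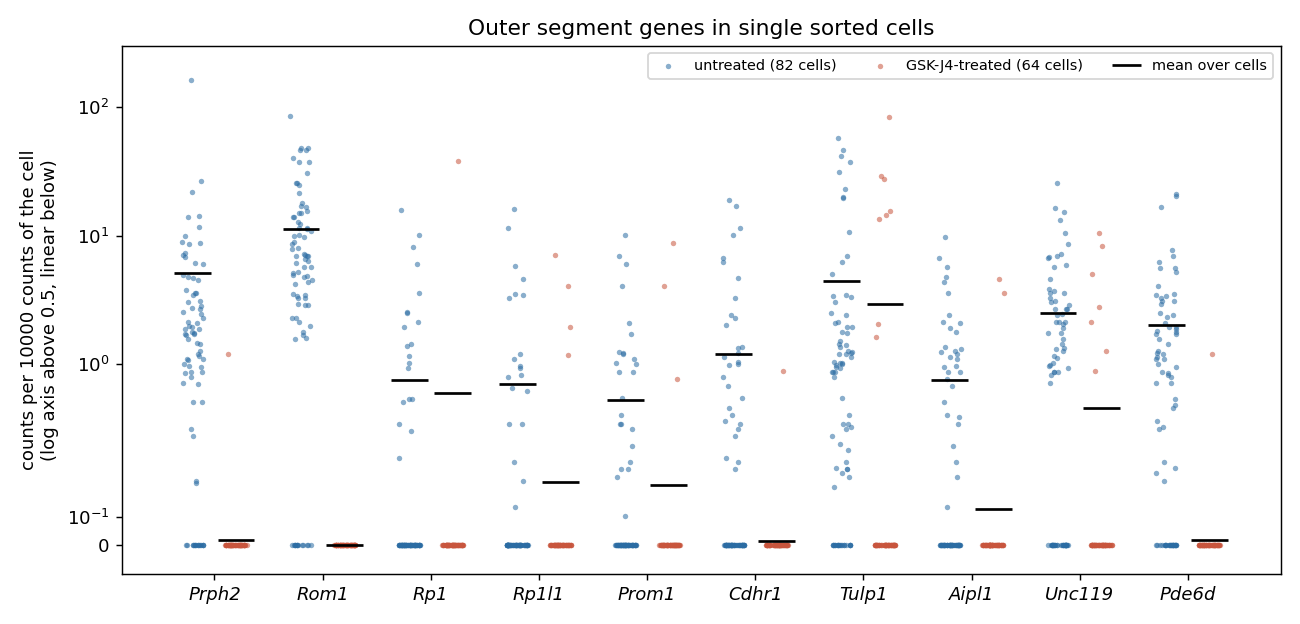
Counts per 10000 in every cell for each of the 10 genes, on a log axis that is linear near 0, with untreated and GSK-J4-treated cells side by side and the mean over cells as a line. Nonzero untreated cells fill the panels of *Prph2* and *Rom1*, whereas the treated cells of *Rom1* are all at 0 and those of *Rp1* are at 0 but for 1 cell.

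Of the axonemal pair, *Rp1* encodes a doublecortin-domain protein along the outer segment microtubules (1:3999557-4409241, minus strand), and *Rp1l1* its related partner (14:63992506-64035025, plus strand). *Rp1* had 45 counts (32.8 to 60.2) in 20 untreated cells and 7 counts (2.81 to 14.4) in the treated library, all in 1 cell of 1843 counts. Its rate ratio, treated over untreated, was 0.830 (0.316 to 1.86), so no difference in rate was detectable at this depth, and its log-fold of -0.093 became -0.56 without that treated cell. *Rp1l1* had 60 counts (45.8 to 77.2) in 20 untreated cells and 4 counts (1.09 to 10.2) in 4 treated cells. Its rates of 0.539 and 0.192 per 10000 had overlapping intervals, with a ratio of 0.356 (0.0939 to 0.960) and a log-fold of -0.33. For both axonemal genes, then, the intervals of the library rates overlapped.

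*Prom1* encodes prominin-1, a membrane protein of nascent disc edges (5:43993620-44102032, minus strand), and *Cdhr1* encodes a photoreceptor cadherin at the same place (14:37077857-37098347, minus strand). *Prom1* had 39 counts (27.7 to 53.3) in 25 untreated cells and 12 counts (6.20 to 21.0) in 3 treated cells, 10 of them in 1 cell. On the library rate it was the one outer segment gene with a higher treated value, 0.575 against 0.350 per 10000, with a ratio of 1.64 whose interval of 0.783 to 3.20 includes 1. The log-fold over cells had the other sign, at -0.23. An exon of *Prom1* overlaps the antisense gene *Gm16401*, which held 5 and 0 counts, and the use of strand in the counting is not stated. *Cdhr1* had 75 counts (59.0 to 94.0) in 30 untreated cells and 1 count in the treated library, a rate 14.1-fold lower (2.45 to 562) with a log-fold of -0.77. The 2 disc base genes therefore differed in how they compared between the libraries, and that difference was not tested.

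*Tulp1*, which is needed for moving proteins to the outer segment (17:28351515-28365222, minus strand), kept the most treated counts. It had 332 counts (297.2 to 369.7) in 61 untreated cells and 43 counts (31.1 to 57.9) in 8 treated cells. Untreated cells ranged from 0 to 58.0 per 10000 and treated cells from 0 to 84.3, so the highest treated cell stood above every untreated one. The library rate was 2.98 per 10000 (2.67 to 3.32) untreated and 2.06 (1.49 to 2.78) treated, with a ratio of 0.691 (0.491 to 0.952). Its log-fold of -0.33 rested on few cells, being -0.72 without the highest treated cell, which had 12 *Tulp1* counts of 1424, and -0.20 without the highest untreated cell. With cells thinned to 1 depth it was 0.076, and with wells of plate columns 7 to 12 alone 0.069.

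*Unc119* encodes a carrier of acylated transducin alpha subunits (11:78343482-78349164, plus strand), and *Pde6d* a carrier of prenylated proteins such as phosphodiesterase catalytic subunits (1:86542994-86582629, minus strand). *Unc119* had 237 counts (207.8 to 269.2) in 49 untreated cells and 15 counts (8.40 to 24.7) in 7 treated cells, 9 of them in 1 cell, with a rate ratio of 0.338 (0.186 to 0.569) and a log-fold of -0.86. *Pde6d* had 173 counts (148.2 to 200.8) in 54 untreated cells and 1 count in the treated library, 32.4-fold lower in rate (5.74 to 1287) with a log-fold of -1.08. Both carriers were lower without overlap of their intervals. *Aipl1*, a chaperone that phosphodiesterase needs to fold (11:72027963-72037509, minus strand), had 79 counts (62.5 to 98.5) in 32 untreated cells and 2 counts in 2 treated cells. Its rate was 7.40-fold lower (1.98 to 62.2), with a log-fold of -0.44. The 15 shallowest untreated cells held no *Aipl1* count, and against these alone its log-fold was 0.12.

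Among untreated cells the order of the levels was taken per kb of exon, since the 10 genes differ in length. *Rom1* led at 9.27 counts per 10000 per kb, followed by *Prph2* at 1.16, *Unc119* at 0.870, *Pde6d* at 0.713, *Tulp1* at 0.447, *Aipl1* at 0.225, *Cdhr1* at 0.155, *Rp1l1* at 0.0712, *Prom1* at 0.0488 and *Rp1* at 0.0328. Counting intervals of neighbours overlapped for *Unc119* with *Pde6d*, *Aipl1* with *Cdhr1*, *Rp1l1* with *Prom1* and *Prom1* with *Rp1*, so those pairs were not ordered. The libraries read both transcript ends, so counts need not grow with length. Division by length is a rough scale, most so for the long genes *Rp1*, *Rp1l1* and *Prom1*. Without it, the library rate of *Tulp1*, 2.98 (2.67 to 3.32), stood above *Unc119* at 2.13 (1.87 to 2.42) and *Pde6d* at 1.55 (1.33 to 1.80). *Rp1* and *Prom1* also changed places, at 0.404 and 0.350 with overlapping intervals, and the rest kept their order.

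In cells, the share with a count was lower in the treated library for 10 of 10 genes without overlap of the intervals, against 34.2% of all 7682 genes, and higher for 0, against 5.02%. Untreated cells held a median of 5 of the 10 genes (0 to 10), and 3 of 82 cells held none (3.66%, 0.761 to 10.3). Treated cells held a median of 0 (0 to 3), and 42 of 64 held none (65.6%, 52.7 to 77.1). Treated cells were shallower, and after each cell was thinned to 867 counts, which left out 1 untreated and 14 treated cells, 24 of 81 untreated cells (29.6%) and 40 of 50 treated cells (80%) held none. At that depth the intervals stayed apart for 2 genes, against 4.07% of all genes: *Prph2* was found in 13 of 81 untreated cells and 0 of 50 treated cells, and *Rom1* in 26 of 81 and 0 of 50. None was higher without overlap, against 2.47% of all genes. A floor of 3 of 50 cells allows a share of up to 6%. The other 8 genes could not be told apart between the libraries at that depth. Of the 8, only *Prom1* had the higher share in treated cells, at 3 of 50 (6%) against 4 of 81 untreated cells (4.94%).

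**Figure D3:**
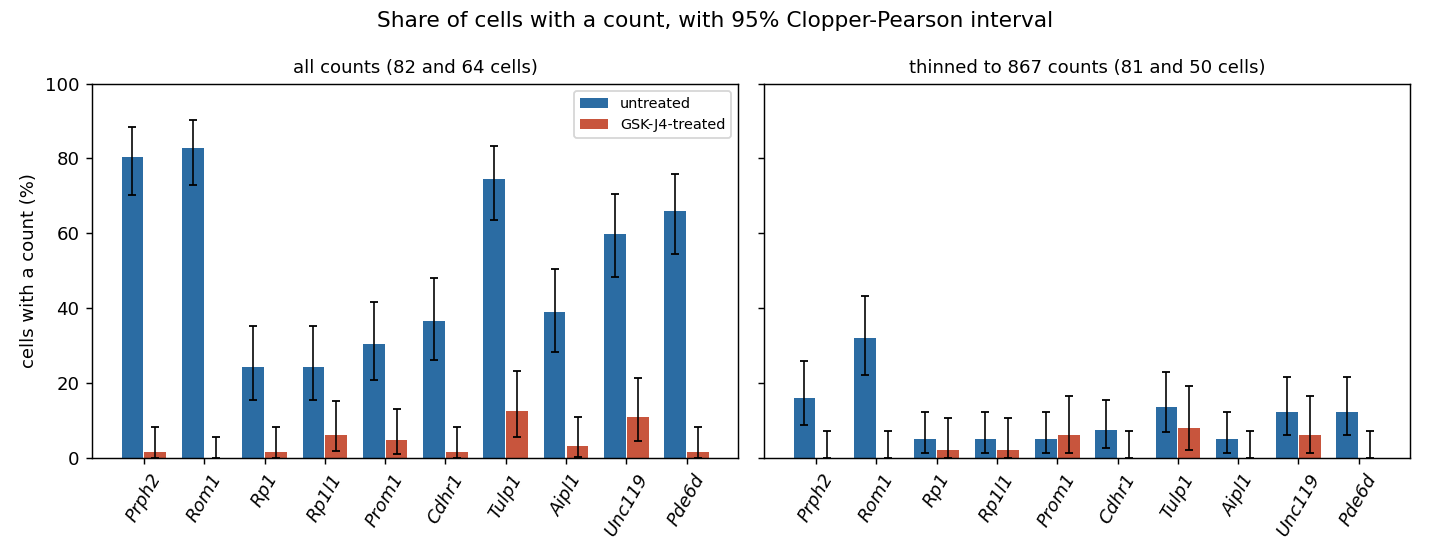
Percent of cells with a count of each of the 10 genes in the 2 libraries, before thinning (left) and with each cell thinned to 867 counts (right), with 95% Clopper-Pearson intervals. Before thinning the intervals of all 10 genes are apart, and after thinning only those of *Prph2* and *Rom1* are.

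The treated rate was below that of untreated cells in each class of depth. The 15 untreated cells at or below the treated median depth held 76 counts of the outer segment genes in 20412, or 37.2 per 10000 (29.3 to 46.6), the 46 cells of middle depth held 29.8, and the 21 cells deeper than any treated cell held 25.3. Each is above the treated value of 4.12 (3.30 to 5.09). By gene, the 15 shallow cells held 27 counts of *Prph2*, 23 of them in 1 cell, and 15 of *Rom1*, whereas the 64 treated cells, with 208578 counts in all, held 1 and 0. Without that cell the shallow class stood at 27.9 per 10000 (20.9 to 36.5).

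The counts that remained in treated cells were of another make-up. *Tulp1* was 50% of them (39.0 to 61.0) but 11.1% of those in untreated cells (9.99 to 12.3), while *Prph2* and *Rom1* were 1 and 0 of 86 counts. The 14 treated cells with a cone marker count held 6 counts of the outer segment genes, or 0.867 per 10000 (0.318 to 1.89), and the 50 without one held 80, or 5.74 (4.55 to 7.14), with 42 of *Tulp1*, 13 of *Unc119*, 11 of *Prom1*, 7 of *Rp1* and 4 of *Rp1l1*. These counts were thus mostly in cells that had no count of any of the 11 cone markers.

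Within the untreated plate the genes did not all vary in 1 direction. Wells of columns 1 to 6 held 34.6 counts of the outer segment genes per 10000 and those of columns 7 to 12 held 19.5. *Rom1* was 20.1 on the first side (18.9 to 21.3) and 8.24 on the second (7.51 to 9.02), *Prph2* 5.34 and 1.69, *Rp1* 0.640 and 0.177. *Tulp1* went the other way, at 2.16 (1.79 to 2.59) and 3.78 (3.29 to 4.32), and so did *Aipl1*, at 0.421 and 0.988. For the mean over cells, 3 genes were higher on the first side by over 0.3 log-fold (*Rom1*, *Rp1* and *Cdhr1*), against 15.9% of 8823 genes, and *Aipl1* was lower, against 14.6%. *Prph2* was -0.21 on this scale, opposite to its library rate, and the cell at 163 per 10000 lies on the second side. Among rod markers, *Gnat1* had 160 and 18 counts, and 6 of the 10 rod markers tested were higher on the first side by over 0.3 in the mean over cells. *Pde6g* is 1 of the 6, but its library rate was lower there, at 7.88 against 10.9. None of the 10 was lower by over 0.3, but *Nrl* and *Pde6a* had log-folds of -0.18 and -0.15. *Nrl* had 0 counts on the first side and 11 on the second. The part of rod RNA in the values of the outer segment genes was not tested. The summed rate was above that of the treated library on both sides, but *Rp1* in columns 7 to 12 and *Prom1* on both sides were below their treated rates of 0.336 and 0.575.

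**Figure D4:**
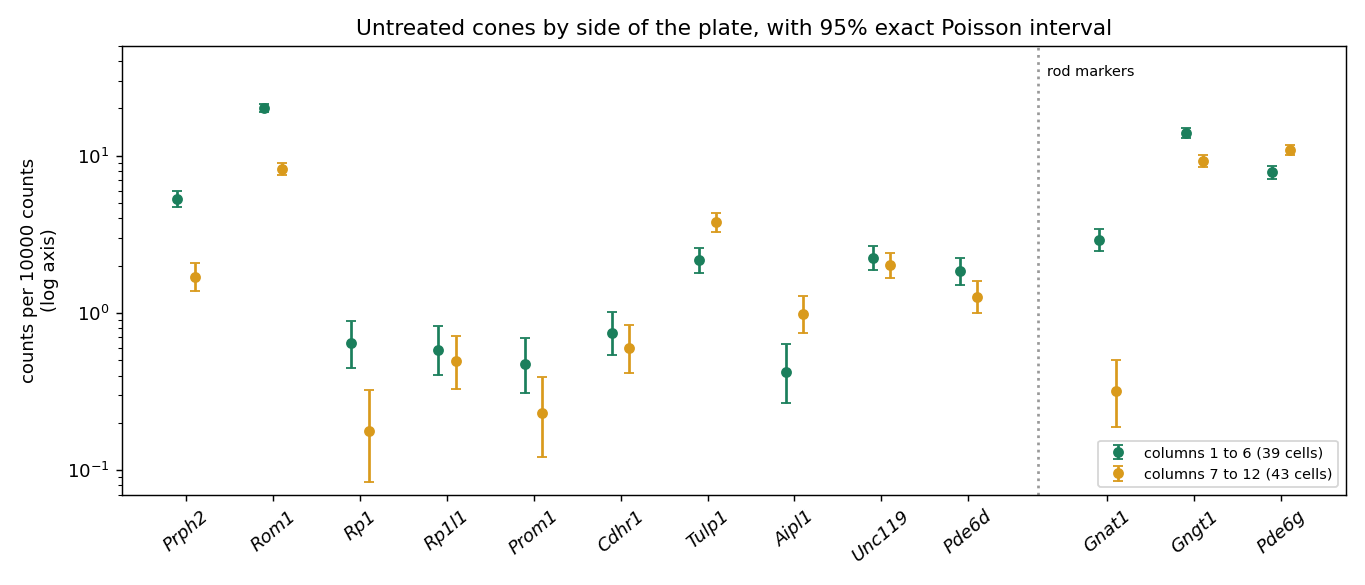
Counts per 10000 of each of the 10 genes and of 3 rod markers in untreated wells of plate columns 1 to 6 (39 cells) and of columns 7 to 12 (43 cells), on a log axis with 95% Poisson intervals. *Rom1*, *Prph2* and *Rp1* are higher on columns 1 to 6, and *Tulp1* and *Aipl1* are higher on columns 7 to 12. Of the rod markers *Gnat1* and *Gngt1* are higher on columns 1 to 6 and *Pde6g* on columns 7 to 12.

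Rod RNA was measured beside these values because outer segment genes are shared by rods and cones. The 12 rod markers summed to 34.9 counts per 10000 in columns 1 to 6 and 23.3 in columns 7 to 12. Over 81 untreated cells the summed outer segment genes had a Spearman correlation of 0.43 with the summed rod markers, 0.29 with the summed cone markers and 0.017 with the depth of the cell. That sum is 52.3% *Rom1*. Taken singly, the genes ranged from -0.099 (*Cdhr1*) to 0.27 (*Rom1*) with the rod markers. With the cone markers they ranged from -0.16 (*Rp1l1*) to 0.25 (*Tulp1*). Across the same cells the largest Spearman correlations between outer segment genes were 0.34 for *Rom1* with *Rp1* and for *Tulp1* with *Pde6d*, and 0.33 for *Rom1* with *Prom1*. *Prph2* and *Rom1* stood at 0.14, with 59 cells holding both. The points share plate, depth and sparse counts, so these are descriptions.

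Exon length differed along with the values. Exons summed to 1.517 kb for *Rom1*, 2.178 kb for *Pde6d*, 2.448 kb for *Unc119*, 3.002 kb for *Prph2*, 3.157 kb for *Aipl1*, 4.332 kb for *Cdhr1*, 6.664 kb for *Tulp1*, 7.175 kb for *Prom1*, 7.573 kb for *Rp1l1* and 12.311 kb for *Rp1*. The Spearman correlation of exon length with log-fold was 0.94 over these 10 genes and 0.36 over 7605 genes with a gene model, a comparison chosen after the values were seen. Median log-folds of all genes were -0.35 below 2 kb, -0.078 from 2 to 5 kb, 0.059 from 5 to 10 kb and 0.18 above 10 kb. *Rom1* in the first class stood at -2.50, the 5 genes of the second ranged from -1.79 to -0.44, the 3 of the third from -0.33 to -0.23, and *Rp1* in the last was at -0.093. Each thus lay below the median of its own length class. Genes below 2 kb took 26.8% of untreated counts and 11.4% of treated counts, and the part of length in the results was not tested.

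**Figure D5:**
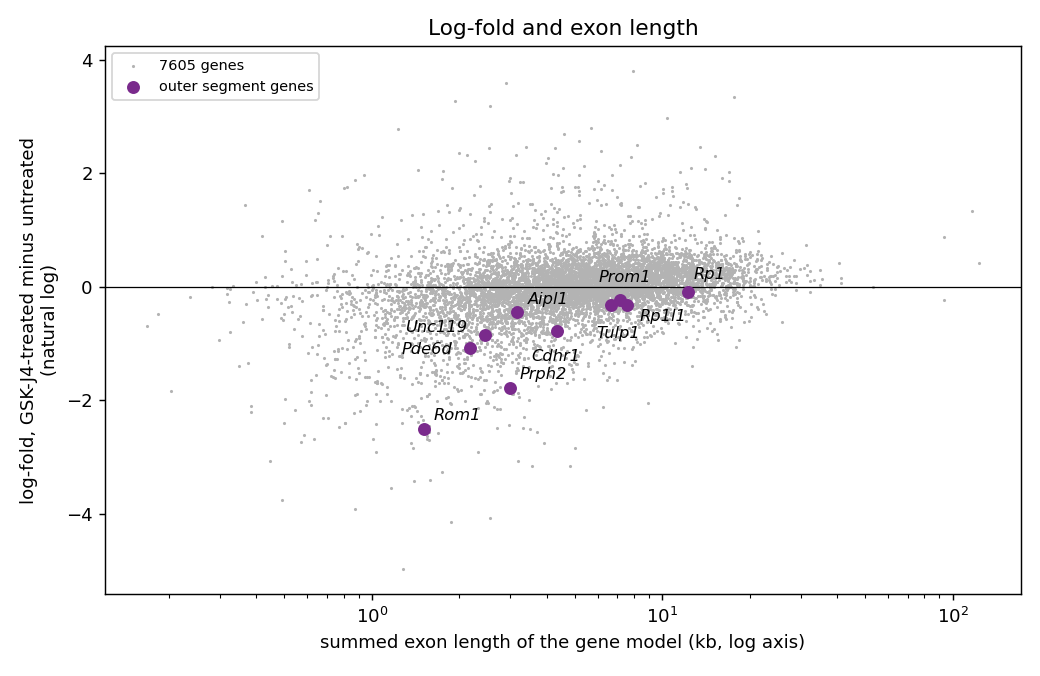
Log-fold, GSK-J4-treated minus untreated, against summed exon length in kb (log axis) for 7605 genes in grey and the 10 outer segment genes in colour. *Rom1*, the shortest at 1.517 kb, has the lowest log-fold of the 10, and *Rp1*, the longest at 12.311 kb, the highest.

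Other genes of the disc, cilium and trafficking machinery, 70 in lists set by role, gave 44 that met the same minimum of cells. Of these, 10 were lower by over 0.3 log-fold and 7 higher, shares near the 24% and 20.4% of all genes. The counts were 20 and 2 with median-ratio size factors, a scaling that moved the median of all genes by -0.21 on the log2 scale. Of 7 disc and calyx genes 1 was lower, *Prcd*, a small disc protein, with 1756 counts against 0 (at least 110-fold lower against a floor of 3 counts). *Abca4*, the retinoid transporter of disc rims, had 1467 and 356 counts, a higher rate in treated cells (ratio 1.30, 1.15 to 1.46). *Pcdh15*, the third most counted, had 167 and 24 counts, with a rate ratio of 0.767 (0.478 to 1.18) and a log-fold of 0.18.

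Of 10 axoneme and connecting cilium genes, 2 were lower and 2 higher. Among the higher ones was *Rpgrip1*, the connecting cilium anchor of RPGR, with 192 and 64 counts and a log-fold of 0.53. *Fam161a*, a microtubule-binding ciliary protein, had 96 and 12 counts (rate ratio 0.667, 0.333 to 1.22). *Cetn3*, a centrin, had 45 and 1 (0.119, 0.00294 to 0.696). Of 15 transport and BBSome genes, 3 were lower, *Ift20*, *Ift27* and *Arl6*, and 4 higher. The latter were *Kif3a*, a motor subunit of kinesin-2, with a log-fold of 1.06 (31 and 33 counts), *Ift122* with 0.58, *Ift140* with 0.56 and *Bbs1* with 0.44. *Ift27* had 185 counts against 0. The medians of these lists were 0.059 and -0.12, and their counts were near the shares of all genes.

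Of 12 trafficking genes 4 were lower and 1 higher. *Hsp90ab1*, the heat shock protein with which AIPL1 works, had 274 and 171 counts and a log-fold of 0.53, whereas *Hsp90aa1* had 130 and 0. *Icmt*, which methylates prenylated proteins, had 192 and 35 counts, with a rate ratio of 0.973 (0.658 to 1.40). A last list held 6 genes of the cone transducin, phosphodiesterase and opsin kinase, complexes whose lipidated members the carriers bind. All 6 were lower by over 0.3, against 24% of all genes, with a median log-fold of -1.59, and 5 of them are also cone markers. *Gngt2* had 7459 counts against 0, *Pde6h* 1628 against 92, *Gnb3* 691 against 1, *Gnat2* 509 against 1, and *Pde6c*, the mutated gene, 69 against 0. *Grk1* was lower in the mean over cells, at -0.47, but its library rate was higher, at 1.15 against 0.404 per 10000, and without 1 untreated cell at 119 per 10000 its log-fold was 0.17.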

How the data were processed

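Whole-number counts per gene and cell were deposited without normalization. The authors assigned reads to wells by plate and cell barcode, aligned them with CLC Genomics Workbench 20, removed duplicates by an 8-nt molecular identifier and mapping position, counted genes with featureCounts on Gencode M17, whether by strand is not stated, and added 3′ and 5′ counts. The genome is named as GRCh38 Mus-Musculus, a human build number, and gene positions here are from GENCODE vM21, on GRCm38.

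Genes found in under 3 cells were removed, as were cells under 200 genes or over 5% mitochondrial counts, which left 146 of 151 cells and 15947 genes. The treated library held 66 columns of cells, fewer than the study counts for it. Log-folds followed the form of Seurat 2.3.4, which the authors used, with a pseudocount of 1. Batch correction and doublet calling were not applied, and no protein sequences were compared. Members and lists were chosen with earlier results of these data known. Named genes were the 10 members, and in each related list the 3 with the most untreated counts and up to 3 higher by over 0.3. Others named (*Arl6*, *Bbs1*, *Hsp90aa1*, *Pde6c*, *Gnat2*, *Grk1*), and single markers such as *Pax6*, *Gad1*, *Slc6a9* and *Nrl*, were added after their values were seen. A few single-gene values are not reported here. Scripts used Python 3.11.15, pandas 2.3.3, numpy 2.4.6, scipy 1.17.1 and matplotlib 3.10.9, and were tested on simulated data. Alternatives covered filters, scaling, depth, pseudocount, threshold and plate side.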

Additional observations from a re-analysis of the deposited data

How the results depend on the processing

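The summed rate of the outer segment genes, with a log-fold of -1.68 between the libraries, was -1.45 with a minimum of 500 genes per cell, -2.20 with median-ratio size factors, -1.15 with cells thinned to 1 depth, -2.06 with plate columns 1 to 6 and -1.33 with columns 7 to 12, and its counting interval was -1.89 to -1.47. The number of these genes lower by over 0.3 was 8, from 6 to 9 under the other alternatives, and 5 lower by over 0.5, against 15.2% of all genes. Genes with a share of cells lower beyond the intervals numbered 10, and 2 with thinned cells. Related genes lower and higher numbered 10 and 7, and were 20 and 2 with median-ratio size factors and 24 and 12 with a pseudocount of 0.1. Over all genes the median-ratio size factors gave 2611 lower and 625 higher, in place of 1842 and 1568. The pseudocount of 0.1 gave 3143 lower and 2935 higher. The gene most like the summed outer segment genes over cells, *Gngt1*, had a correlation of 0.39, and 0.22 with thinned cells. With untreated cells up to the treated median depth, an alternative chosen after seeing the data, 14 of the 44 related genes were higher and 9 lower. In that setting 2600 of all 7682 genes were higher and 1739 lower, so the related genes did not stand out.

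Of 90 single-gene values, 55 moved by less than the counting error, 32 moved by more and 3, of genes past 0.3, changed sign: *Tulp1* was 0.076 with thinned cells and 0.069 with columns 7 to 12, and *Aipl1* 0.12 with shallow untreated cells. *Prom1* and *Rp1*, within 0.3 of 0, also turned positive, *Prom1* at 0.15 with summed counts and 0.12 with thinned cells, *Rp1* at 0.12 with 500 genes and 0.036 with columns 1 to 6. *Prph2*, *Rom1*, *Rp1l1*, *Cdhr1*, *Unc119* and *Pde6d* were negative in all 10 settings, and their values nearest to 0 ranged from -2.11 for *Rom1* to -0.21 for *Rp1l1*. The cause of these changes was not tested. No paired analysis was possible because each group was 1 library without replicate numbers. Each treated value of 1 or 2 counts is limited by depth.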

Other observations

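Outside the report's comparisons, the genes whose level over 81 untreated cells was most like that of the summed outer segment genes were *Gngt1*, a rod transducin gamma subunit, *Tma7*, *Gm42418* and *Chchd2*, with Spearman correlations of 0.39, 0.39, 0.37 and 0.36 among 788 genes with a count in most untreated cells. With thinned cells they were 0.22, 0.24, 0.21 and 0.25. The range over the 788 genes was -0.37 to 0.39, the cells share plate and depth, and the counts are sparse, so no relation is read from them. The treated plate was uneven too, with 6 *Tulp1* counts in columns 1 to 6 and 37 in columns 7 to 12, and 7 and 0 counts of *Rp1*, each plate side being part of the same library.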
